A study of Mus musculus with 12 samples.

Results

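A set of 6586 open chromatin regions was followed across macrophage culture and stimulation, out of 139999 regions (peaks) measured by ATAC-seq, a method that reads open DNA by where a transposase can insert into it. The set is 4.7% of all peaks. The members were chosen on the measured values. For each phase the level of a peak, M, was the average of the log2 means of both groups in the authors' deposited table, minus the median of all peaks. A member had a second-phase M at least 1 above its rest-phase M, a second-phase M above 0, and a rest-phase M within 2 of its first-phase M. The difference between the second and the rest phase therefore defines the set and is given as a description, with no test.

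The cells were bone marrow derived macrophages of male C57BL/6J mice, put on study at 8 weeks of age. Streptozotocin, a toxin of insulin-producing cells, was injected at 42 to 45 mg/kg daily for 5 days into the mice made diabetic, and glucose above 16.9 mmol/L was the criterion. Marrow was taken after 6 weeks of hyperglycaemia. Each of the 6 groups held 2 libraries. In the first phase the groups were Diabetic and Healthy, with the time of collection not given in the labels. The rest phase had Diabetic-trained and Untrained cells, grown from diabetic and control marrow for 7 days in 5 mmol/L glucose with M-CSF, the growth factor that turns marrow cells into macrophages. In the second phase the same kinds of culture were stimulated for 16 hours with both LPS (100 ng/mL) and IFN-γ (10 ng/mL). The second phase is thus later in culture as well as stimulated, and time and stimulus cannot be told apart. The labels do not say whether the 2 libraries of a group came from separate animals, so their spread may be technical. The deposited columns are not tied to the diabetic or the control group. A stands here for the group of a table's first mean column and B for the other, and A of one phase need not be A of another.

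IFN-γ binds its receptor and acts through JAK kinases on transcription factors that bind GAS elements, and through IRF factors, which bind interferon-stimulated response elements (ISRE). LPS, a wall component of Gram-negative bacteria, acts through Toll-like receptor 4 on NF-kB and AP-1 factors. In macrophages both signals switch on genes for host defence and antigen presentation, and many of the enhancers used are closed or weakly open in unstimulated cells and open on stimulation.

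The promoters of 6 genes under a member show which of these elements the opened regions can hold. Each line gives the 250 bases before the gene's start from RefSeq (GRCm38.p6, the same assembly as mm10), read on the gene's strand. Capitals mark letters that match an ISRE-like (GAAANNGAAA), GAS-like (TTCNNNGAA), NF-kB-like (GGGANTTTCC) or AP-1-like (TGANTCA) pattern on either strand. Gbp5, Tgtp2, Cxcl10 and Cxcl1 were taken by the rule for named genes, and Isg15 and Il6 were chosen after their letters were seen. All 6 were shown because they hold a match. Of 18 such windows of list genes under a member, 13 hold a match of these patterns and 5 hold none (Tnfaip3, H2-Aa, Ifi44, H2-Eb1 and Irf7). The Tnfaip3 member has the largest difference of the 18, at 2.62.
Gbp5 (chr3:142496684-142496933, plus strand): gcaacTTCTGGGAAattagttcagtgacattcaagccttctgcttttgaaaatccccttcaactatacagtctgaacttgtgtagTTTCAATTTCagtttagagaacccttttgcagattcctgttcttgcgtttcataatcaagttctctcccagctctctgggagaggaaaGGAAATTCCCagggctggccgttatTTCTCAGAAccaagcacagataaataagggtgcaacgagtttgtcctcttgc
Tgtp2 (chr11:49064213-49064462, minus strand): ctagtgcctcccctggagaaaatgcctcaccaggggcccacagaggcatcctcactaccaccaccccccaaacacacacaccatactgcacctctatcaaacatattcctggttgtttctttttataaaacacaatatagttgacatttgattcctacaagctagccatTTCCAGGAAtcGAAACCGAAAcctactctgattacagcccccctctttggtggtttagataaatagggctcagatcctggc
Isg15 (chr4:156200819-156201068, minus strand): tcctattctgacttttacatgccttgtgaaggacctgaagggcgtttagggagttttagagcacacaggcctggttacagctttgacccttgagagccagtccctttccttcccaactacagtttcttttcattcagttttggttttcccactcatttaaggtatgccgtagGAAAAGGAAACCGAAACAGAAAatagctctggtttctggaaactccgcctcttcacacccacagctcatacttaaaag
Cxcl10 (chr5:92348890-92349139, minus strand): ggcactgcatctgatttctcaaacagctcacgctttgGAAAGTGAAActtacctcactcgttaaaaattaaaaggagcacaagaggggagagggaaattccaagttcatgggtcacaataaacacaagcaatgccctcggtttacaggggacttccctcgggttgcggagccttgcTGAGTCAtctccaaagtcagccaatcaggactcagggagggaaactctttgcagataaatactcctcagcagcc
Cxcl1 (chr5:90890995-90891244, plus strand): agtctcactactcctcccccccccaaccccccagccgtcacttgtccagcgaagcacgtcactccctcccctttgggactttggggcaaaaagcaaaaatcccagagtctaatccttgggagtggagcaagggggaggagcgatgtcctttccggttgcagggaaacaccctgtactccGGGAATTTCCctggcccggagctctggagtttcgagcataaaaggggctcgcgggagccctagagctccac
Il6 (chr5:30012864-30013113, plus strand): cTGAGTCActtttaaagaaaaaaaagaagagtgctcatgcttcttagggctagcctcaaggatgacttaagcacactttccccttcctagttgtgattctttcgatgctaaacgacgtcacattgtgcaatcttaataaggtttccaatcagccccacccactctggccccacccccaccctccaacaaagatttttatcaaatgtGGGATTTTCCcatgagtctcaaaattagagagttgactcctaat
Gbp5 encodes a guanylate binding protein of cell-autonomous defence, and its window holds an ISRE-like match starting 165 bases before the start, an NF-kB-like match at 77, and GAS-like matches at 245 and 52. The match at 245 lies outside the member, which spans chr3:142496719-142497118. Tgtp2, an immunity-related GTPase, has a GAS-like match at 81 and an ISRE-like match at 70. Isg15, a ubiquitin-like antiviral protein, has overlapping ISRE-like matches at 78, 72 and 66. Cxcl10, a chemokine that attracts T cells, pairs an ISRE-like match at 213 with an AP-1-like match at 74. The neutrophil chemokine Cxcl1 has an NF-kB-like match at 71, and the cytokine Il6 has one at 44 and an AP-1-like match at 249.

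The members over these 6 windows differed in how open they were before stimulation. The Gbp5 promoter had 3.83, 2.05, 3.09 and 3.1 RPM in first-phase libraries A1, A2, B1 and B2, 3.98, 3.69, 2.93 and 2.51 RPM in the rest phase, and 4.00, 30.5, 3.92 and 37.9 RPM in the second phase. Here RPM is the reads of a peak scaled by all reads of its library that fall in peaks. Libraries A2 and B2 of the second phase were high, and A1 and B1 were at the level of the rest phase. The Il6 promoter was already open at rest, with 3.35, 6.38, 2.32 and 3.27 RPM in the first phase, 12.6, 13, 11.7 and 15.6 RPM in the rest phase, and 15, 42.4, 10.7 and 45.3 RPM in the second. Isg15 had 5.01, 26.3, 4.44 and 31.6 RPM in the second phase, against 4.56 to 6.75 RPM in the rest phase, and Cxcl1 3.78, 7.19, 2.35 and 7.25 RPM, against 1.69 to 3.3 RPM.

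The 4 second-phase libraries did not look alike at the members, and this bears on every result below. Reads of each library were solved from the group means. Libraries carry the numbers 1 and 2 by the worth of a read, which ties them to no replicate number of the labels. Reads in peaks ran from 3827344 in second-phase B1 to 18602644 in rest-phase A1. The median member had 1.44, 1.37, 1.44 and 1.96 RPM in first-phase libraries A1, A2, B1 and B2. It had 1.94, 1.63, 2.38 and 1.60 RPM in the rest-phase libraries and 2.11, 8.36, 3.92 and 9.56 RPM in the second-phase libraries. Libraries A2 and B2 of the second phase stood far above the other 10, library A1 lay within the range of the rest phase, and B1 lay between.

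Members took 7.65% of the reads in peaks in second-phase A2 and 8.40% in B2, but 2.39% in A1 and 3.03% in B1, against 1.54% to 2.16% in the rest phase. On log2 (RPM + 0.5), the median member was above the rest-phase mean by 0.10 in A1, 1.75 in A2, 0.77 in B1 and 1.91 in B2. The same medians over all peaks were -0.12, -0.28, 0.42 and -0.18. At least a 2-fold gain was seen at 197 members in A1 (3.00%, against 0.381% of all peaks) and at 5899 in A2 (89.9%, against 7.78%). In B1 it was seen at 2073 (31.6%, against 16.7%) and in B2 at 6418 (97.8%, against 10.1%). The gain that chose the members was therefore carried by 1 library of each second-phase group, and the set is named for a stimulation that 2 libraries of the same label show weakly or not at all.

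**Figure D1:**
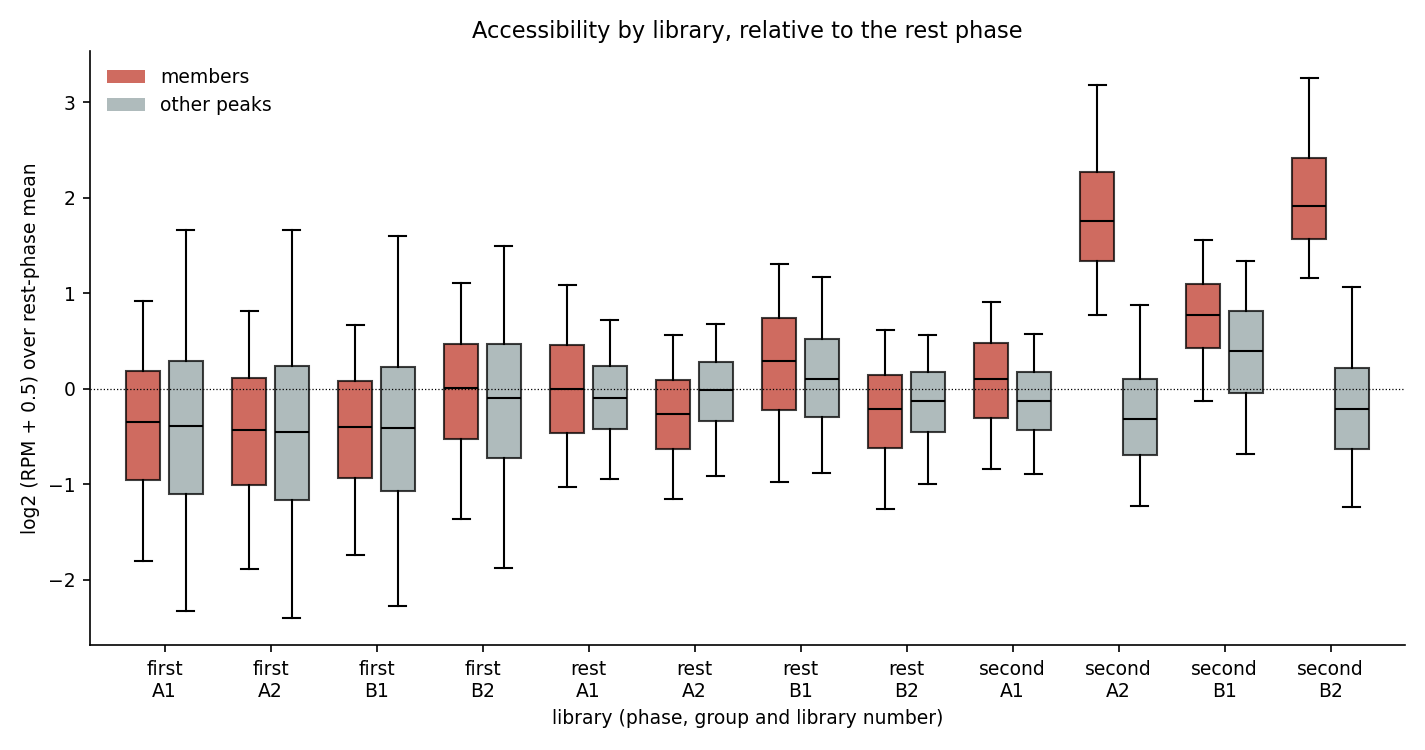
Log2 (RPM + 0.5) over the rest-phase mean in each of the 12 libraries, for members (red, left) and other peaks (grey, right); the mean leaves out the library itself where it is a rest-phase one. Boxes span the middle quartiles with the median, whiskers the 5th and 95th percentiles over peaks; member medians stand at 1.75 and 1.91 in second-phase A2 and B2 and at 0.10 and 0.77 in A1 and B1.

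Across members the gains in A2 and B2 went together, with a correlation of 0.81 over 6562 members, while those in A1 and B1 did not (-0.15). These values share the rest-phase mean as reference and describe the members only. Both A2 and B2 gained at least 2-fold at 5847 members (89.1%), and both A1 and B1 at 37 (0.564%). Pairs of libraries were also compared over all peaks with at least 20 reads in the pair, not over members alone. The reads of second-phase A1 and rest-phase A1 differed with a variance 1.94 times that of sampling noise. For second-phase A1 it was 4.19 times against rest-phase A2, and 15.7 times against second-phase A2, a library of the same label. For second-phase B1 it was 5.19 times against rest-phase B1, 8.23 against rest-phase B2 and 7.85 against second-phase B2. Against rest-phase A1 it was 6.34 times, and against second-phase A1 7.13. At peaks with at least 400 reads in the pair it was 1.82 against rest-phase A1 and 12.1 against rest-phase B1. The ratio changes with read depth, so pairs of unlike depth are not strictly comparable. Over all peaks, log2 (RPM + 0.5) of second-phase B1 correlated at 0.90 with rest-phase A1 and 0.83 with rest-phase B1. The correlation was 0.89 with second-phase A1 and 0.76 with second-phase B2. What sets these libraries apart was not tested.

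**Figure D2:**
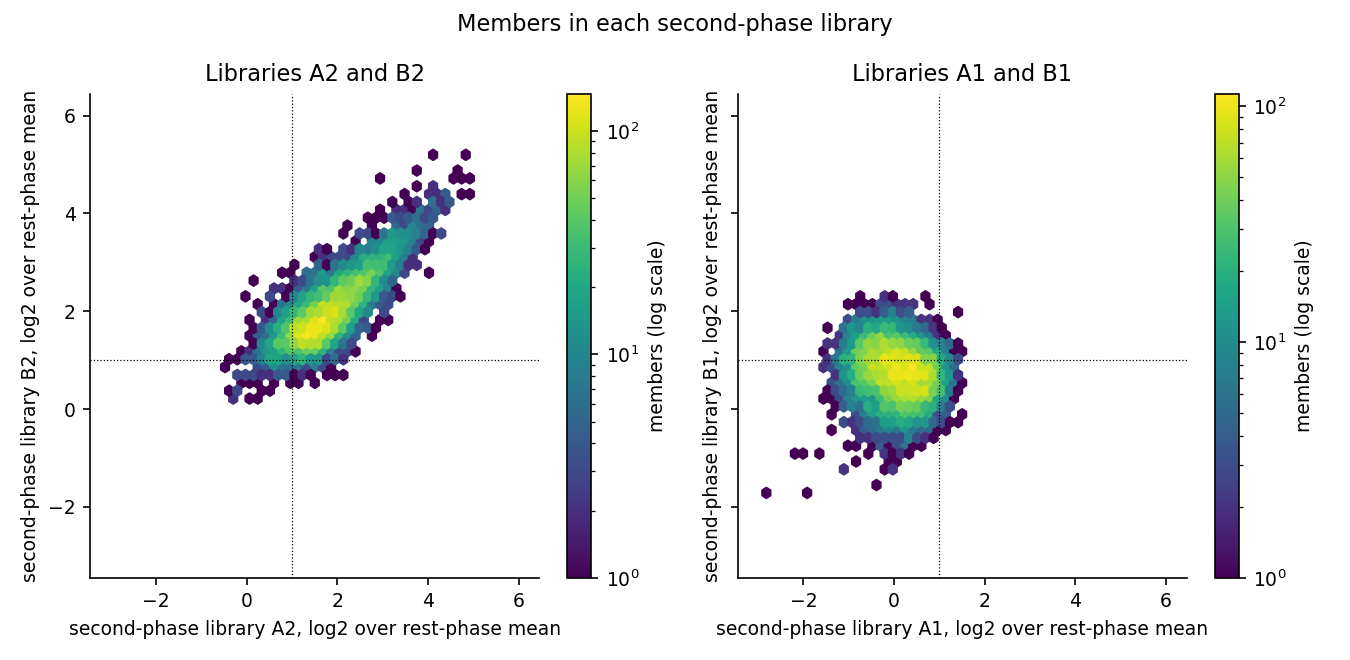
Each member's log2 (RPM + 0.5) over the rest-phase mean in second-phase libraries A2 and B2 (left) and A1 and B1 (right), as the number of members per hexagon on a log colour scale; dotted lines mark a 2-fold gain. In A2 and B2, 5847 of 6562 members lie above both lines, and in A1 and B1 37 do.

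All 4 second-phase libraries lay above all 4 rest-phase libraries at 1198 members (18.3%, against 2.06% of all peaks). A2 and B2 lay above the other 10 libraries at 5658 members (86.2%, against 9.61%). Since the rule used the second and rest phases, these shares describe the choice and support nothing. At 235 members (3.58%, against 84.7% of all peaks) A2 or B2 was not above every rest-phase library, a share that the choice also sets. Ccl6, a chemokine gene of myeloid cells, is an example with a member whose levels ran the other way, at 6.56 and 5.23 RPM in A1 and B1, 3.79 and 3.63 RPM in A2 and B2, and 0.684 to 3.98 RPM in the rest phase.

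The difference of M between the second and the rest phase had a median of 1.55 over the members, with quartiles of 1.23 and 2.09 and a highest value of 4.96. Many members were close to the threshold: 3073 (46.7%) had a difference of 1 to 1.5, 1644 of 1.5 to 2, 1476 of 2 to 3, 344 of 3 to 4, and 49 of more than 4. The 10 members just inside the threshold had differences of 1.0000 to 1.0007, and the 10 peaks just outside 0.9988 to 0.9998. Of 61869 peaks that met both other criteria, 10.6% were members. By the mirrored rule, 686 peaks had a second-phase M at least 1 below the rest-phase M.

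The 12 genes with the largest difference had values of 4.39 to 4.96. The largest was in an intron of Fpr2, a receptor for formylated bacterial peptides (chr17:17917502-17917901). It had 0.239, 0.228, 0.552 and 0.98 RPM in the first-phase libraries, 0.538, 0.625, 1.65 and 0.342 RPM in the rest phase, and 0.0556, 36.4, 1.83 and 45.7 RPM in the second phase. A2 and B2 were high, and A1, with 1 read, was the lowest of the 12 libraries. An intronic member of Acod1 (chr14:103052157-103052556), the mitochondrial enzyme that makes itaconate, had 1.91, 2.73, 1.21 and 1.47 RPM in the first phase, 0.269, 0.313, 2.02 and 0.684 RPM in the rest phase, and 0.0556, 22.3, 1.05 and 45.7 RPM in the second. The pattern was the same, with A2 and B2 alone high. The others were Helt, 1700012I11Rik, Mb21d2, Gpr21, Fut8, Rbbp8, Gm1720, Stk31, Pigk and Kdr, each with 12.7 RPM or more in A2 and B2 and 4.18 RPM or less in A1, B1 and the rest phase.

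Genes of the upstream interferon pathway held members at shares from 4.29% to 8.65%. The share of a gene list's peaks that were members is read against the 4.7% over all peaks. The lists were written with earlier results of these data known, so the shares are descriptions. A gene without a member can still hold a peak with a difference of at least 1 that fails another criterion, as did 30 peaks of 23 list genes. The interferon receptor and JAK kinase list had 9 members among 104 peaks (8.65%), at 6 of 8 genes with a peak. A distal member of Ifnar2, a chain of the type I interferon receptor, had 2.22, 19.9, 3.92 and 15.7 RPM in the second phase, against 1.14 to 1.65 RPM in the rest phase. The STAT and SOCS list had 12 among 163 (7.36%). Stat3, a transducer of cytokine signals, had an intronic member with 1.67, 0, 0.331 and 0.817 RPM in the first phase, 0.215, 0.25, 0.733 and 1.25 RPM in the rest phase, and 0.111, 5.44, 3.14 and 8.9 RPM in the second. A2 and B2 were the highest of the 12 libraries. Socs1, a feedback inhibitor of JAK kinases, had members with differences of up to 1.49, and Socs3 had none. Interferon regulatory factors held 6 members among 140 peaks (4.29%), below the share of all peaks, at Irf1, Irf2, Irf4, Irf7 and Irf8.

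Guanylate binding proteins and immunity-related GTPases, targets of interferon, held the highest shares of the 19 lists. Guanylate binding protein genes, whose GTPases attack vacuoles of intracellular microbes, had 27 members among 56 peaks (48.2%), at 10 of 11 genes with a peak. Gbp10 had no member, although a peak of it had a difference of 5.09, above that of any member. That peak failed the criterion on the first phase, since its rest-phase M was 2.90 below its first-phase M. It had 2.87, 3.19, 1.44 and 2.45 RPM in the first phase, 0.215, 0.25, 1.28 and 0.456 RPM in the rest phase, and 0.111, 29.2, 1.57 and 25.2 RPM in the second. A distal member of Gbp5 had 0.957, 1.59, 0.221 and 0.98 RPM in the first phase, 0.269, 0.313, 0.917 and 0.342 RPM in the rest phase, and 0.222, 10.4, 0.523 and 19.9 RPM in the second. The member at the start of Gbp6 had 1.39, 26.3, 2.09 and 35.6 RPM in the second phase, against 0.625 to 2.57 RPM in the rest phase. At least a 2-fold gain was seen at 26 of the 27 members in A2 and 27 in B2, against 0 in A1 and 8 in B1. The rule chose members on this gain, which 89.9% of all members had in A2, 97.8% in B2, 3.00% in A1 and 31.6% in B1. Gbp genes are related copies in clusters, and reads may be split between those most alike in sequence. Immunity-related GTPases had 11 members among 36 peaks (30.6%), 5 of them at Ifi47. An intronic Ifi47 member had 0.945, 9.14, 2.61 and 16.6 RPM in the second phase, against 0.798 to 0.917 RPM in the rest phase.

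Antiviral interferon-stimulated genes had 17 members among 129 peaks (13.2%), at 10 of 28 genes with a peak. Members were found at Ifit1, Ifit2, Ifit3, Mx1, Isg15, Rsad2, Oasl1, Ifi44, Zbp1 and Usp18, and none at the Oas1a, Oas2 and Oas3 sensors of double-stranded RNA. Usp18, a protease that removes Isg15 and restrains interferon signalling, had 1.61, 18.7, 3.14 and 20.9 RPM at an intronic member in the second phase, against 1.03 to 1.75 RPM in the rest phase. All 17 members gained at least 2-fold in A2 and in B2, against 0 in A1 and 5 in B1. Members were chosen on this gain, and over all members the shares were 89.9% in A2, 97.8% in B2, 3.00% in A1 and 31.6% in B1.

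MHC class II genes, which present antigen to helper T cells, had 21 members among 85 peaks (24.7%), 14 of them at promoters. The longest run of members lay here, with 11 of the 21 peaks between positions 34241943 and 34305997 of chromosome 17, over H2-Ab1, H2-Aa, H2-Eb1 and H2-Ob. An intronic H2-Eb1 member had 1.91, 1.14, 2.1 and 1.96 RPM in the first phase, 2.85, 1.44, 3.12 and 1.03 RPM in the rest phase, and 2.17, 25.3, 4.44 and 28.3 RPM in the second. Ciita, the coactivator that controls class II genes, had 0.478 to 2.5 RPM in the first phase, 2.94 to 6.34 RPM in the rest phase, and 7.01, 26.0, 6.27 and 26.7 RPM in the second. The member at the start of Cd74, the class II invariant chain, was already open in the first phase. It had 36.8, 32.6, 37.9 and 13.1 RPM in the first phase, 13.3, 9.57, 4.58 and 13.8 RPM in the rest phase, and 9.57, 83.4, 6.79 and 86.5 RPM in the second. The class I and immunoproteasome list had 6 members among 59 peaks (10.2%), at B2m, Tap2, Psme2, Nlrc5 and Erap1.

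**Figure D3:**
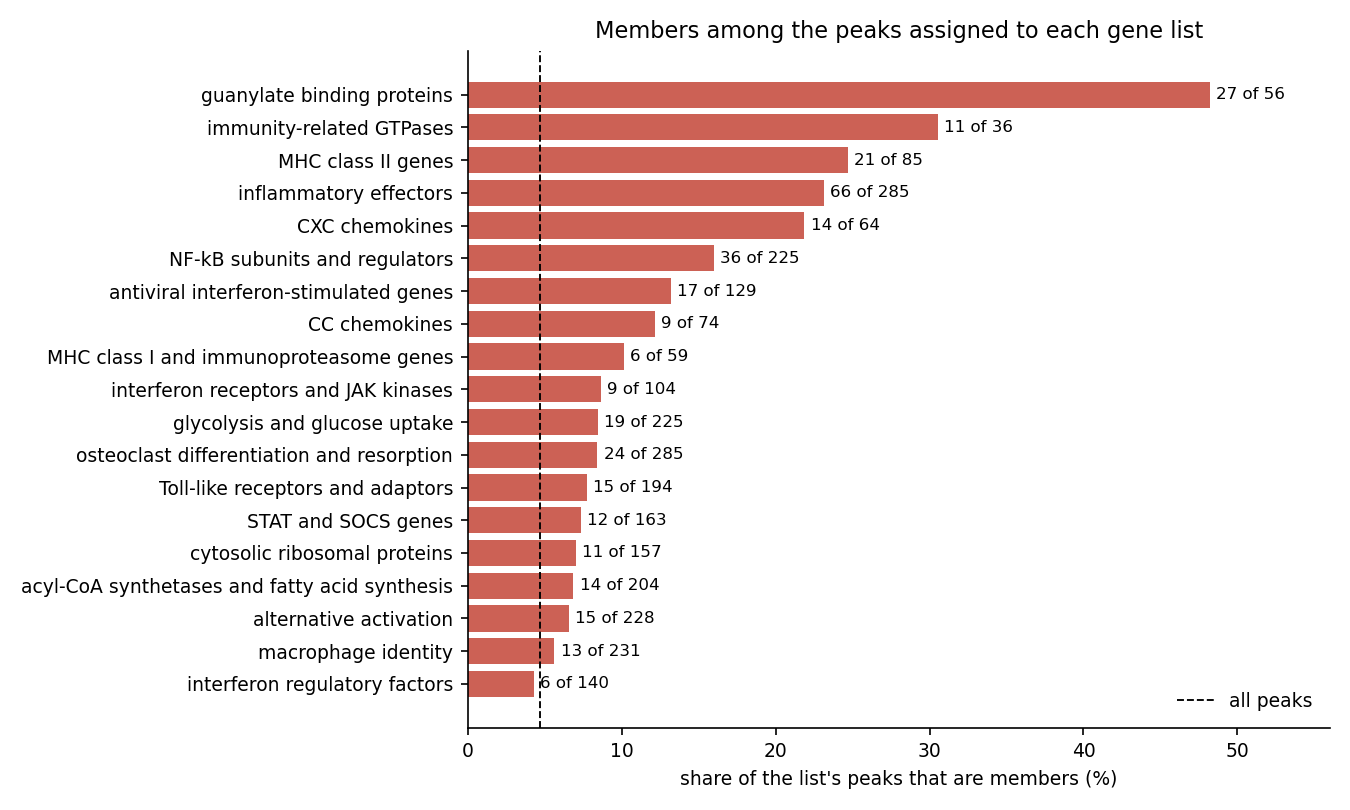
Share of the peaks assigned to each gene list that are members, in percent, with the numbers beside the bars; the dashed line is the 4.7% of all peaks. Of 19 lists, 18 lie above the line, from 5.63% for macrophage identity to 48.2% for guanylate binding proteins. The housekeeping list of cytosolic ribosomal proteins is among them, at 7.01%.

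On the LPS side, Toll-like receptors and adaptors held 15 members among 194 peaks (7.73%). Tlr4, the LPS receptor, had 3 of its 29 peaks among them, and the largest, a distal one, had 0.0556, 8.26, 2.09 and 9.23 RPM in the second phase, against 0.161 to 1.28 RPM in the rest phase. Myd88, Ticam1 and Cd14 had none. NF-kB subunits and regulators held 36 members among 225 peaks (16.0%). Tnfaip3, the A20 enzyme that ends NF-kB signalling, accounted for 13 of them. The member within 1 to 3 kb of a start of Nfkb1, which encodes the p105 precursor of an NF-kB subunit, had 1.91, 1.37, 1.21 and 3.1 RPM in the first phase, 1.61, 1.00, 0.917 and 1.48 RPM in the rest phase, and 1.89, 25.1, 3.92 and 28.8 RPM in the second. Traf1, an adaptor of TNF receptors, had 0.612, 27.7, 3.14 and 24.6 RPM in the second phase, against 0.188 to 2.38 RPM in the rest phase. Nfkb2, Rela and Relb had no member.

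Effector genes of inflammation held 66 members among 285 peaks (23.2%), at 21 of 28 genes with a peak. Nos2, the enzyme that makes nitric oxide in activated macrophages, had 7 of its 12 peaks in the set. Its largest intronic member had 0.957, 1.14, 1.99 and 2.78 RPM in the first phase, 0.914, 0.375, 2.93 and 1.25 RPM in the rest phase, and 0.723, 25.2, 2.61 and 41.4 RPM in the second. Ptgs2, the inducible cyclooxygenase, had a distal member with 0.334, 8.75, 2.09 and 31.8 RPM in the second phase, against 0.313 to 1.47 RPM in the rest phase. Here B2 was well above A2. Members also lay at Il6, Il12a, Il12b, Il27, Il10, Il15, Il1a and Il1b, and at 5 of the 6 peaks of Cd274, the T cell inhibitor PD-L1. Tnf, Il23a, Il18 and Cd80 had none.

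Chemokine genes followed with 14 members among 64 peaks (21.9%) for the CXC class and 9 among 74 (12.2%) for the CC class. Cxcl5 had 7 members, and Cxcl9, a classical IFN-γ target, had none. The 1 peak of Cxcl9 had a difference of 1.72 but a second-phase M of -0.46, under the 0 that the rule asks for. Cxcl10 had 1.72, 18.4, 3.14 and 24.4 RPM at its largest member in the second phase, against 1.08 to 3.12 RPM in the rest phase. Ccl5, a chemokine for T cells and monocytes, held 7 of its 10 peaks in the set. The one at its start had 2.87, 1.37, 2.21 and 1.8 RPM in the first phase, 0.914, 0.813, 3.48 and 0.912 RPM in the rest phase, and 1.72, 42.4, 4.96 and 43.0 RPM in the second.

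Metabolic genes held shares nearer to that of all peaks. Acyl-CoA synthetases and fatty acid synthesis had 14 members among 204 peaks (6.86%), 6 of them at Acsl1, which activates long-chain fatty acids. A distal Acsl1 member, chr8:46426265-46426664, had 1.44, 0.911, 1.32 and 1.47 RPM in the first phase, 0.269, 0.313, 1.83 and 0.57 RPM in the rest phase, and 0.111, 20.8, 2.09 and 19.0 RPM in the second. The Helt member with a difference of 4.95, at chr8:46365230-46365629, lies nearby on the same chromosome. Glycolysis and glucose uptake had 19 among 225 (8.44%), 9 of them at Hif1a, the hypoxia-inducible transcription factor. An intronic Hif1a member had 1.11, 13.2, 3.92 and 8.08 RPM in the second phase, against 0.876 to 1.47 RPM in the rest phase. The glycolytic enzyme genes Gapdh, Pkm and Ldha had none.

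Osteoclast genes had 24 members among 285 peaks (8.42%), among them 6 at Prdm1 and 1 at Nfatc1, and Ctsk and Dcstamp had none. The alternative activation list had 15 among 228 (6.58%), of which 7 lay at Klf4 and 3 at Il4ra, while Arg1, Mrc1 and Retnla had none. Macrophage identity genes had 13 among 231 (5.63%), 6 of them at Maf. Cytosolic ribosomal proteins, listed as housekeeping genes, had 11 among 157 (7.01%), 7 of them at Rplp1 and none at a promoter. Among peaks that met both other criteria, the share of members was 10.6% over all genes. Against this, interferon regulatory factors (7.69%) and macrophage identity (10.6%) were not higher, and the other lists were. Ribosomal proteins stood at 12.0%, Toll-like receptors and adaptors at 12.4% and guanylate binding proteins at 69.2%.

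**Figure D4:**
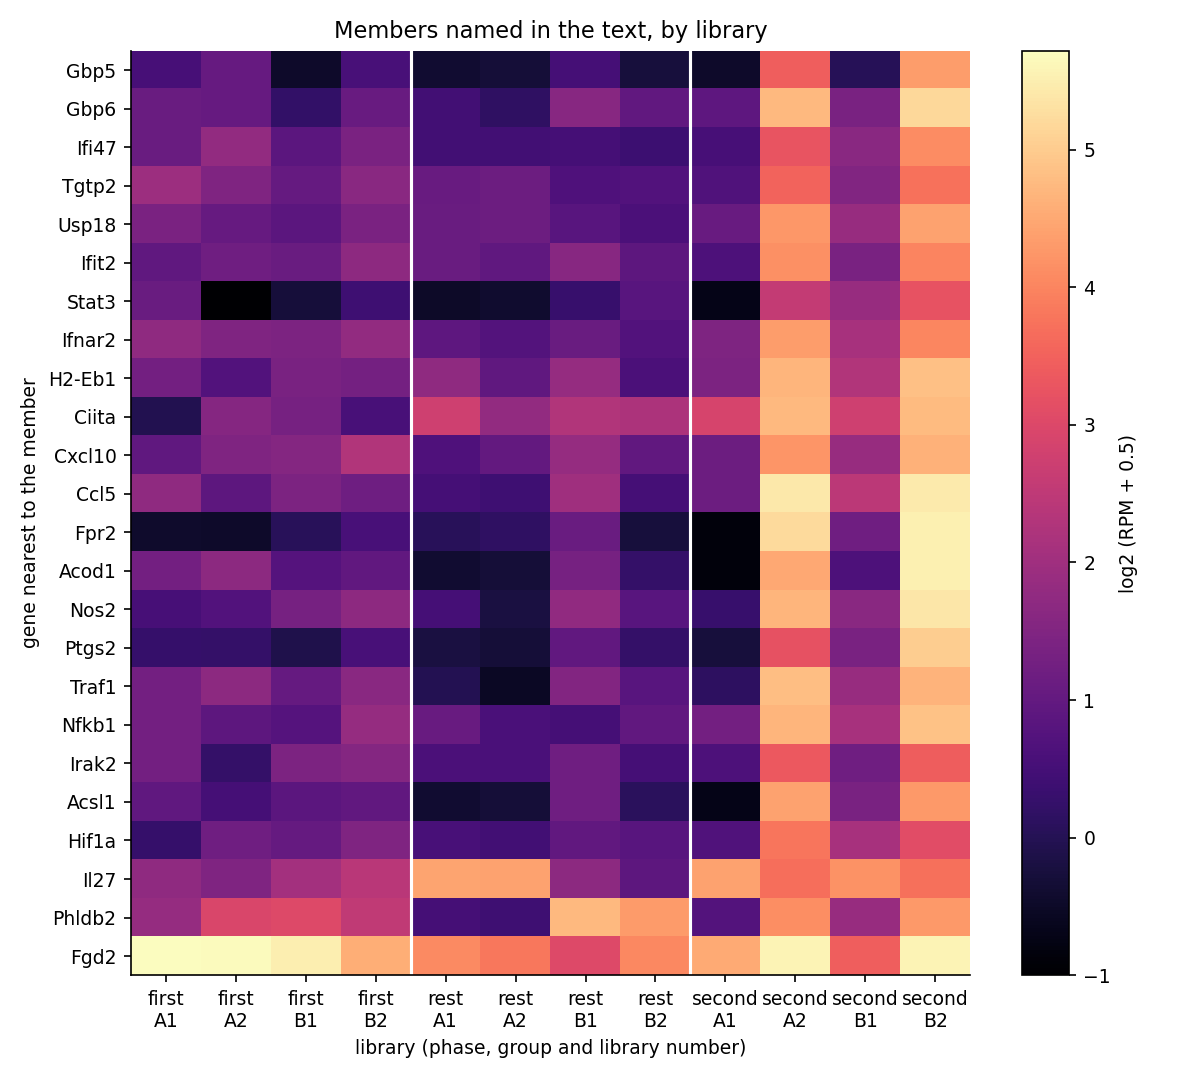
Log2 (RPM + 0.5) of members named by their nearest gene, in each of the 12 libraries, as colour; white lines part the phases. Most are bright in second-phase A2 and B2 alone; Il27, Phldb2 and Fgd2 at the bottom do not follow this pattern.

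Members were not evenly spread over genes. They were assigned to 3909 gene symbols, of which 2534 had 1 member and 167 had at least 5. Creb5, a transcription factor gene, had the most with 16 of its 68 peaks, followed by 1700016G22Rik (15 of 59), Lpp (14 of 83), Btg1 (14 of 58) and Nampt (14 of 34). Mir155hg, the host gene of the inflammatory microRNA miR-155, had 13 of 26, and B230303A05Rik, Slco3a1 and Tnfaip3 had 13 each. They were followed by 1700019E08Rik with 12 members, Zc3h12c with 11 and Gm20139 with 10. When members no more than 12.5 kb apart were joined, 4444 stood alone and 213 fell in 37 runs of at least 5. All 8 peaks between 84702902 and 84721108 of chromosome 16 at Mir155hg were members. At Ccl5 8 of 10 peaks between 83522056 and 83544678 of chromosome 11 were members. At Cd274, Plgrkt and Pdcd1lg2 it was 8 of 9 between 29366242 and 29391666 of chromosome 19.

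By the authors' deposited annotation, members lay away from gene starts. Promoters (within 3 kb of a start) held 17.0% of members, against 26.1% of all peaks and 35.2% of peaks that met both other criteria. Within 1 kb the shares were 6.76%, 16.7% and 24.6%, while at 1 to 3 kb they were close, at 10.2%, 9.45% and 10.7%. Distal intergenic members made up 34.8%, against 30.2% of all peaks and 26.0% of those meeting both other criteria. Introns after the first made up 27.6%, against 24.3% and 20.7%. The median distance to the nearest start was 14814.5 bp for members and 10971 bp for all peaks, and 121 members (1.84%) lay across a start, against 9.63% of all peaks. Promoter shares were 18% for members with a difference of 1 to 1.5, 18.6% for 1.5 to 2, 14.6% for 2 to 3 and 11.7% above 3. By chromosome the share of peaks that were members ran from 2.71% on X to 5.75% on chromosome 12, with 0 of 15 peaks on Y.

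In all, 98 RefSeq promoter windows (250 bases before to 50 after a start), of 92 genes, lay under a member, and 12511 lay under any peak. An AP-1-like match was found in 35 of the 98 (35.7%), against 6.23% of windows under any peak. The ISRE-like pattern was in 22 (22.4%), against 3.02%, the GAS-like pattern in 13.3%, against 6.91%, and the NF-kB-like pattern in 4.08%, against 0.440%. The C/EBP-like pattern TTGCNNAA was in 19.4%, against 8.70%. The GC box GGGCGG ran the other way, with 13.3%, against 61.8%. For PU.1-like GAGGAAGT, a pattern of the macrophage factor PU.1, the shares were 4.08% and 3.94%. Both strands were searched, and matches of different patterns may overlap. Over all RefSeq windows, under a peak or not, the GC box share was 35.6%. There the AP-1-like share was 7.82%, ISRE-like 3.43%, GAS-like 8.29%, NF-kB-like 0.411%, C/EBP-like 10.8% and PU.1-like 3.20%. Windows were not matched for base composition, and its part in these shares was not tested. Most members lie outside promoters, where no sequence was read.

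**Figure D5:**
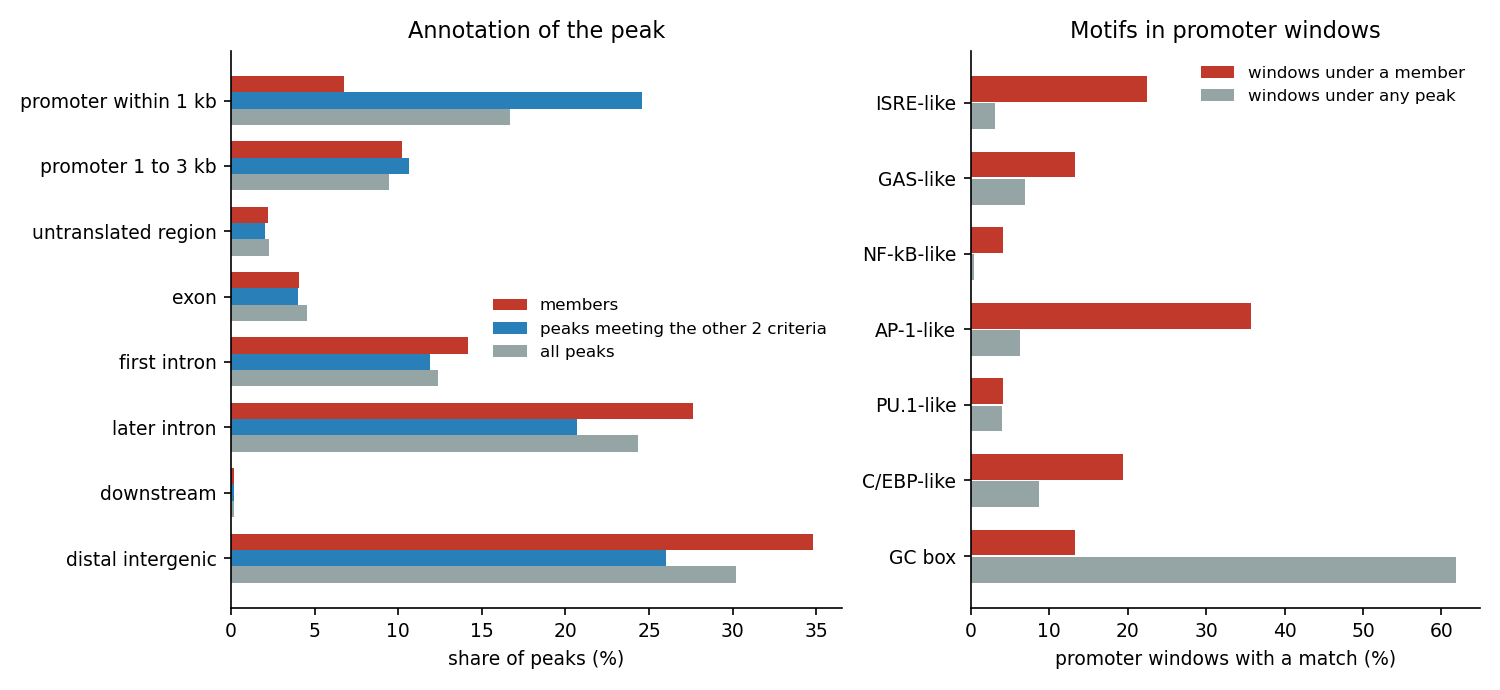
Left, share of peaks in each annotation class in percent for members (red), peaks meeting both other criteria (blue) and all peaks (grey). Right, share of RefSeq promoter windows with at least 1 match, for windows under a member (red) and under any peak (grey); AP-1-like letters stand at 35.7% and 6.23%, the GC box at 13.3% and 61.8%.

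In the first phase most members were weakly open but not the lowest of peaks. Their first-phase M had a median of -0.58, with quartiles of -1.05 and -0.05, and 23% were above the median peak. Of the peaks that met both other criteria 69.1% were above it. Rest-phase M had a median of -0.69 over the members, and second-phase M a median of 0.99. Members did not move one way between the first phases: 26.8% were at least 0.5 higher in the rest phase than in the first and 34.7% at least 0.5 lower. Of all peaks 31.3% were higher and 32.9% lower by as much. Of peaks that met both other criteria 41.7% were higher and 25.3% lower. All 4 rest-phase libraries lay above all 4 first-phase libraries at 1050 members (16.0%, against 26.9% of all peaks), and below them at 258 (3.93%, against 12.7%). The rule bounds this difference, so the lower shares at members are partly set by it. Libraries A1 and A2 of the first phase were nearly as alike as sampling noise allows, with a variance ratio of 1.13 over all peaks. They are counted here as 1 sample out of caution, since the labels do not say whether they came from separate animals. For B1 and B2 of the first phase the ratio was 6.97.

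At 3.16% of members the first-phase M was above the second-phase M, and the rest-phase M, which the rule holds at least 1 below the second-phase M, was the lowest of the 3. The 6 members with the highest first-phase M were at 1700019E08Rik, Fgd2, A630001O12Rik, Vmp1, Prkrip1 and Cd74. Fgd2, an exchange factor for the GTPase Cdc42 in immune cells, had 52.2, 50.3, 44.8 and 23.5 RPM in the first phase, 16.4, 13.6, 7.7 and 16.1 RPM in the rest phase, and 22.7, 47.4, 10.5 and 47.5 RPM in the second. Second-phase A2 and B2 came back into the first-phase range, and A1 and B1 did not. The lowest first-phase values were at Adap1, Gm14461, Gm14634, Prdx4, Rabgap1l and Abca13, each listed at 0 in a first-phase group.

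The first phase also held more signal at markers of several other marrow cells, though not of all. Summed promoter levels of 8 neutrophil markers were 233 to 584 RPM in the first phase, 52.9 to 75.3 RPM in the rest phase and 53.3 to 88.7 RPM in the second. B cell markers had 75.3 to 256, 48.8 to 64.9 and 46.1 to 91.4 RPM in the same order, and erythroid markers 96.9 to 193, 26.3 to 42.7 and 24.2 to 38.4 RPM. Macrophage markers had 314 to 592, 527 to 664 and 512 to 653 RPM. Their part in the first-phase levels of members such as Cd74, which B cells also use, was not tested. In such bulk samples a smaller share of cells with an open region and less opening per cell cannot be told apart. Among the peaks of marker genes, members were 6 of 96 for macrophages, 1 of 46 for neutrophils, 2 of 56 for B cells, 1 of 15 for T and NK cells, 0 of 32 for erythroid cells and 3 of 71 for dendritic and mast cells. The share over all peaks was 4.7%, and with so few peaks these counts set no cell type apart.

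The rule used the mean of both groups of a phase and not their difference. A low level in either group of the rest phase, or a high one in the second, still helps a peak in. The rest-phase and second-phase comparisons at members are therefore not independent of the rule. In the first phase no member differed at an adjusted p under 0.05 in the authors' deposited table, as for all peaks (0% called), and 14 had an unadjusted p under 0.05 (0.213%, against 0.580% of all peaks). With limma on the solved reads the count was 0 as well, with 286 at an unadjusted p under 0.05 (4.36%, against 3.74% of all peaks, quantile scaling). These fits take A1 and A2, counted above as 1 sample, as 2. Without A1 or without A2 the count was again 0, with 346 and 409 members at an unadjusted p under 0.05 (5.27% and 6.23%, against 3.60% and 3.72% of all peaks).

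In the rest phase the authors' deposited table called 1768 members higher in A (26.8%, against 39.7% of all peaks) and 2 higher in B (0.0304%, against 0.0929%). In either direction 39.8% of all peaks were called. The excess of calls towards A changed with the scaling. With limma and quantile scaling 503 members were higher in A (7.67%, against 6.48% of all peaks) and 260 higher in B (3.96%, against 5.56%). With limma and total reads in peaks it was 857 and 550 (13.1% and 8.29% of all peaks), and with limma and the authors' scaling 3602 and 51 (55.5% and 0.494%). Group A held 18602644 and 15990425 reads in peaks, against 5454821 and 8770052 in group B, and the part of depth in these calls was not tested. Leaving out any 1 rest-phase library left 0 calls in limma with quantile scaling, with 639 to 2253 members at an unadjusted p under 0.05 (9.74% to 34.3%, against 13.0% to 33.0% of all peaks).

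The members with the lowest adjusted p in the rest phase differed between A and B before the stimulus. Il27, a cytokine subunit gene, had a distal member with 2.28 to 4.90 RPM in the first phase. In the rest phase it had 21.3 and 20.9 RPM in A, against 2.75 and 1.37 RPM in B, and in the second phase 21.0 and 12.3 RPM in A, against 17.5 and 12.7 RPM in B. The log2 difference of A over B in the rest phase was 3.48 (SE 0.27, limma with quantile scaling, adjusted p = 0.000687, n = 2 and 2). Its difference of M came from the low rest-phase B, and no second-phase library was above the 21.3 RPM of rest-phase A. Whether A is the same group in both phases is not known. Cemip2 (log2 difference 2.93), Mir21c (3.00), Ppm1l (3.11) and Rapgef2 (3.03) were likewise low in rest-phase B. Phldb2, a cytoskeletal protein gene, was the reverse, with 0.914 and 0.813 RPM in rest-phase A, against 26.0 and 19.5 RPM in B, a log2 difference of -4.49 (SE 0.28, limma with quantile scaling, adjusted p = 0.000356). In the second phase it had 1.17 and 16.9 RPM in A, against 3.14 and 19.0 RPM in B. Ahi1, the other member called higher in B, had a log2 difference of -3.12 (SE 0.39, limma with quantile scaling, adjusted p = 0.00288). Of members solved in all libraries, both rest-phase A libraries were at least 2-fold above both B libraries at 326 (4.97%, against 3.36% of all peaks). The reverse held at 606 (9.23%, against 4.65%). The rule helps such peaks in, so these shares are partly set by it, and the adjusted p values here are descriptions.

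In the second phase the authors' deposited table called 60 members higher in A (0.911%, against 26.7% of all peaks) and 0 higher in B (against 0.00429%), with 255 at an unadjusted p under 0.05 (3.87%, against 42.8%). Of the members, 691 (10.5%) are listed there at an adjusted p of 1, against 38000 of all peaks (27.1%). The lowest adjusted p went to members such as Pde7b, a cyclic AMP phosphodiesterase gene, with 6.95 and 8.55 RPM in A, against 7.58 and 5.11 RPM in B. The groups overlap in RPM. The others named by the rule were 1700029N11Rik, Smyd1, Gpnmb and Slc31a2. With limma the count was 0 under each of the quantile, total-read and authors' scalings, with 2, 44 and 9 at an unadjusted p under 0.05 (0.0305%, 0.671% and 0.137%, against 0.771%, 0.972% and 3.70% of all peaks). Each group joined 1 library with the gain and 1 with a smaller gain or none. The median log2 difference of A over B at the members was 0.81 without A1 and 1.00 without B2, but -0.94 without A2 and -1.20 without B1 (limma with quantile scaling), and its sign depended on the library left out. At the members in the second phase, limma thus called no difference between Diabetic-trained and Untrained cells, while the authors called the 60 above. With such unlike libraries in each group, these fits could miss a difference in opening.

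Libraries could be left out of the rule only on the solved reads, which with quantile scaling and all 12 libraries gave 5702 members, 5432 of them shared with the 6586. When second-phase A1 and B1 were left out together on this scale, a setting added after the data were seen, 12609 peaks met the rule (9.01% of all peaks), among them 6512 of the 6586 members. When A2 and B2 were left out instead, 1404 met it (1.00%), among them 353 members. The guanylate binding protein list then had 43 of 56 peaks in the first case and 1 of 56 in the second, and the MHC class II list 34 and 1 of 85.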

How the data were processed

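ATAC-seq libraries (12, in 6 groups of 2) were processed by the authors to 3 deposited tables over the same 139999 peaks. The build mm10 and the tools HOMER 5.1, DiffBind 3.14.0, DESeq2, DESeq, MACS2, Picard 3.2.0, Bowtie2 2.5.4, bedtools 2.28.0 and deepTools 3.2.1 are named in no stated role, per the submitters' processing notes. The authors' deposited columns hold log2 means of scaled reads for either group, their log2 fold change, a p-value and an adjusted p-value, and the annotation. Replicates are pooled in them.

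Each group mean is the sum of 2 whole read numbers, each times the worth of a read in its library, over 2. All means above the floor were solved for 1 pair (relative miss at most 3.46e-09), which gave reads of all 12 libraries at 139557 peaks and at 6562 of the 6586 members. The solver was tested on simulated data. RPM divides by reads in peaks, and total depth is not known here, so values scale with the share of reads in peaks. Python 3.11.15, R 4.3.3 and limma 3.58.1 were used. limma was run over all solved peaks within each phase on log2 (scaled reads + 1), with an intensity trend and Benjamini-Hochberg adjustment, under 3 scalings (quantile, total reads in peaks, the authors'). Calls are at an adjusted p under 0.05. The gene of a peak is the nearest in the authors' annotation, and distance is to its start.

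The rule, the gene lists, the markers and the rule for named genes were chosen with earlier results of these data known. Named were the 12 genes with the largest difference, the 12 genes with most members, up to 4 genes in each list, the members with the lowest adjusted p per phase and direction, and the 6 highest and lowest in the first phase. Other genes in the text are given as counts of a list or were chosen after their values were seen. The files turned out to hold no genome sequence to read peaks from, so motifs were searched in RefSeq promoter windows. Alternatives were other thresholds, scalings, a read minimum and leaving out libraries. Some genes of the lists are not reported here by name.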

Additional observations from a re-analysis of the deposited data

How the results depend on the processing

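The number of members was 12796 at a difference of at least 0.5, 3513 at 1.5, 4636 with rest minus first within -1 to 1, 6024 with at least 20 reads, 5702 with quantile scaling of solved reads (5432 shared, median difference 1.39) and 5407 with RPM. On that quantile scale, leaving out 1 library in turn gave 2159 to 9282 members, 15.4% to 17.4% at promoters and a median difference of 0.85 to 1.73; the lowest counts came without second-phase B2 (2159) and A2 (2237). Promoters held 18.1% at 0.5. Without second-phase A2 and B2 (same scale, chosen after seeing the data) they held 13.2%, the number was 1404 and the median difference 0.28; without A1 and B1 the number was 12609. The promoter share of members minus that of all peaks was -9.16 percentage points, and minus that of peaks meeting both other criteria -18.3. The rest-phase count of called members, 1770, was 887 at an adjusted p under 0.01, 763 with limma and quantile scaling, 3653 with limma and the authors' scaling, and 0 to 0 on leaving out a library. For the members found without A1 and B1 it was 3100 (24.6%, against 39.8% of all peaks). The share of all peaks under 0.01 is not given here. The second-phase count, 60, was 0 at 0.01 and 0 under each limma scaling. For the members found without A1 and B1 it was 153 (1.21%, against 26.7% of all peaks). The cause of these shifts was not tested, except that a lone library leaves limma fewer samples and is assumed to vary like the others. The number of lists above the share of all peaks was 18, 15 to 18 at other thresholds, at promoters alone and without A1 and B1, but 11 without A2 and B2. No paired analysis was possible because the columns carry no replicate numbers. Motifs in whole peaks and in their central 200 bases were not run, since no genome sequence of the peaks was used here. Low peaks limit the first phase most, where the median member had 6 to 13 reads per library.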
